A study of Mus musculus with 1504 samples.

Results

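Fibroblasts sorted together with the vascular cells of the adult mouse lung were compared between 3 sets of single-cell libraries, Mural1, Mural2 and Mural3. A well was taken as a fibroblast when it held at least 500 CPM of Dcn and at least 50 CPM of Col1a1, less than 100 CPM of Myh11, fewer than 2 of the pericyte genes Cox4i2, Higd1b, Trpc6 and Lamc3 at 20 CPM or more, less than 50 CPM of Sox9, and less than 10000 CPM of Sftpc and Scgb1a1 together. CPM is a gene's reads divided by the well's reads in all genes, times 1000000. By this rule 335 of the 1504 wells of the series were fibroblasts. They were 34 of the 128 wells of Mural1 (26.6%, 95% Clopper-Pearson interval 19.1 to 35.1), 48 of the 233 of Mural2 (20.6%, 15.6 to 26.4) and 253 of the 374 of Mural3 (67.6%, 62.6 to 72.4). None of the 769 wells of the 3 endothelial sets met the rule. Members were thus chosen by measured levels of these 10 genes, and their levels and shares are a description of what the sorts and the rule let through.

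The series sorted single fluorescent cells from lungs of C57BL/6 mice into plates and read their polyadenylated RNA by SMART-seq2, a method that covers whole transcripts. Per the labels 769 cells came from Cldn5(BAC)eGFP mice, 374 from Pdgfrb(BAC)eGFP mice and 361 from Pdgfrb(BAC)eGFP/NG2dsRed mice, in which bacterial artificial chromosomes drive eGFP from Cldn5 or Pdgfrb control regions and dsRed marks NG2, the product of Cspg4. The age is 12 to 15 weeks in the sample labels and 10 to 19 weeks in the design text. The 374 wells of Mural3 equal in number the Pdgfrb(BAC)eGFP cells, and those of Mural1 and Mural2 summed equal the 361 cells with both reporters, but a number does not map a column. The table's columns are named by set and well, with no reporter, animal or date, so the sets keep their own names and each is 1 sample: nothing below has a replicate check, no p-value was computed, and a difference of genotype, age, animal, plate or sort cannot be told apart. A BAC reporter need not copy every cell that uses the gene, and Pdgfrb is active in fibroblasts as well as in mural cells.

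Fibroblasts make and remodel the collagen, elastic fibre and proteoglycan network of the lung. Those of the sheath around vessels and airways, called adventitial, are known for Pi16, Ly6a, Cd34 and Col14a1, and those of the alveolar wall for Tcf21, Npnt and Itga8. Fibroblasts also secrete complement proteins and growth factors for epithelium. Immediate early genes, among them the transcription factors Fos and Egr1, are known to respond fast to growth factors, stress and tissue dissociation.

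The 8 fibroblast markers that took no part in the rule were also read. No wells outside the rule were set beside them, so their levels describe the chosen wells and do not test the label. Summed over these 8, the wells held 65819 CPM in Mural1, 71365 in Mural2 and 76803 in Mural3, and their median log2 fold was -0.02. Dcn, the proteoglycan decorin, stood at 23653 CPM in Mural1, 25898 in Mural2 and 27953 in Mural3, and Col1a1, the main chain of type I collagen, at 5757, 6964 and 6943, both as required by the rule. Without Dcn, the summed level of the other 10 adventitial markers was 14765, 17421 and 17683 CPM, and that of the 10 alveolar markers 7072, 8330.4 and 6786 CPM. Most of the alveolar sum came from Mfap4 and Inmt, whose levels, given below, ran in opposite directions between the sets. Its near-equal values therefore do not show that single alveolar markers were alike. The nearest well inside the Dcn threshold held 503 CPM and the nearest outside 478 CPM. The Sox9 criterion alone removed 25 wells of Mural1, 5 of Mural2 and 53 of Mural3, with 48.7 CPM just inside and 52.8 CPM just outside, and the epithelial criterion alone removed 1, 18 and 39 wells, with 9941 CPM inside and 10268 CPM outside.

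Libraries were of like depth. The median was 336879 reads in Mural1 (112951 to 549540), 357191 in Mural2 (113109 to 609569) and 372745 in Mural3 (101199 to 600017), with reads of 4114, 4354 and 3895 genes at the median. Shares of cells were therefore taken after each cell had been thinned to 50000 reads, at which the medians were 3380, 3473 and 3191 genes. Reads of other cells were uneven between the sets. The alveolar type 2 list of 10 markers summed to 116 CPM in Mural1 (0 to 1900.2 over wells), 1219.6 in Mural2 (2.23 to 25052) and 497 in Mural3 (0 to 27125), the leukocyte list of 11 to 20.0 (0 to 636), 599 (0 to 32243) and 282 (0 to 37106), the endothelial list of 12 to 249 (0 to 814), 405 (0 to 6733) and 188 (0 to 3422), and the chondrocyte or perichondrial list of 9 to 1474 (0 to 18034), 7.91 (0 to 91.3) and 6.56 (0 to 141). The pericyte list of 9 summed to 578 CPM (0 to 12027) in Mural1, 285 (0 to 4377) in Mural2 and 236 (0 to 9888) in Mural3. The smooth muscle list of 11 summed to 421 (6.29 to 4070.2), 639.9 (8.93 to 6164) and 453 (0 to 3672) CPM. Both lists hold genes that the fibroblast rule limits. The Y-linked Ddx3y was read at 145, 111 and 92.6 CPM, and the X-inactivation RNA Xist at 0, 0 and 0.812 CPM.

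Against Mural3, 94 of 3724 genes tested differed by at least 2-fold in Mural1 and, in the same direction, in Mural2, which is 2.52% of the genes tested: 42 (1.13%) were higher and 52 (1.40%) lower. Another 4 (0.107%) differed by 2-fold in both sets but in opposite directions. A gene was tested when the side with the higher level reached 50 CPM by summed reads and 25% of its cells held a read after thinning, in each of Mural1 and Mural2 where these were the higher side. The word "passed" below means past this rule of size. Pooled levels of Mural1 and Mural2 gave a median log2 fold of 0.02 over all genes tested, so the scale was centred. Taken alone, Mural1 differed from Mural3 by 2-fold in 619 of 3974 genes (15.6%; 345 or 8.68% higher, 274 or 6.89% lower) and Mural2 in 256 of 3850 (6.65%; 123 or 3.19% higher, 133 or 3.45% lower). By the pooled fold alone 190 of 3832 genes (4.96%) differed, with 107 (2.79%) higher and 83 (2.17%) lower. Mural1 and Mural2 differed from each other in 711 of 4074 genes (17.5%), of which 397 (9.74%) were higher in Mural1 and 314 (7.71%) lower, so a difference of this size between sets was common, and the 94 genes are those on which both sets lay on one side of the same Mural3 cells. Bounds after a level or a fold are exact 95% intervals that cover counting error only; the reads have no molecular identifier, so several can stem from 1 molecule.

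**Figure D1:**
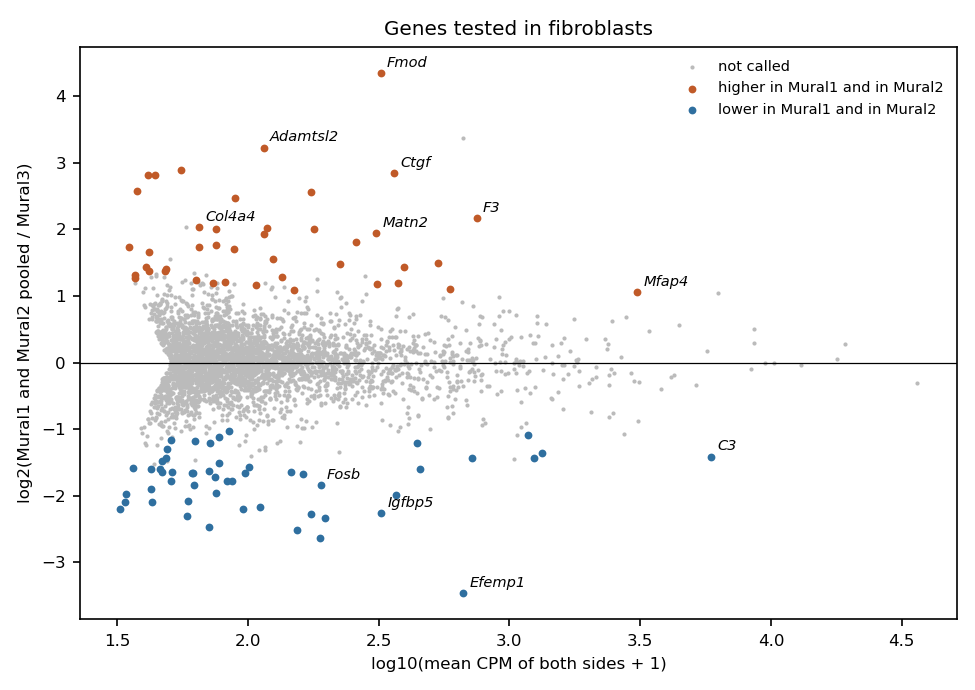
Each point is 1 of the 3724 genes tested, with the log10 of its mean CPM on the x axis and the log2 fold of pooled Mural1 and Mural2 over Mural3 fibroblasts on the y axis. Orange marks the 42 genes at least 2-fold higher and blue the 52 at least 2-fold lower in each of Mural1 and Mural2, and grey the others, which include genes past 2-fold in the pool but not in both sets.

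Several secreted matrix and matricellular proteins were higher. Ctgf, connective tissue growth factor, which binds matrix, integrins and growth factors (chromosome 10, 24595442 to 24598683, plus strand), stood at 647 CPM in Mural1, 627 in Mural2 and 88.2 in Mural3. In single wells it ran from 0 to 5459 with a median of 154 CPM in Mural1, from 0 to 4962 with a median of 358 in Mural2, and from 0 to 5246 with a median of 0 in Mural3. A read was found in 73.5%, 81.2% and 22.9% of cells. The pooled fold was 7.20 (7.01 to 7.39), with 7.34 in Mural1 and 7.10 in Mural2. The sets overlapped, as single Mural3 wells reached the same height, but most of them held no read.

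Adamtsl2, a secreted glycoprotein of the microfibrils that hold TGF-beta complexes (chromosome 2, 27079379 to 27108981, plus strand), stood at 325, 129 and 21.9 CPM in Mural1, Mural2 and Mural3. Its median over wells was 207 CPM in Mural1 and 0 in both other sets, with maxima of 1356, 752 and 901. A read was found in 58.8%, 37.5% and 11.1% of cells. The fold was 14.8 (14.0 to 15.7) in Mural1 and 5.88 (5.53 to 6.24) in Mural2, so Mural2 lay between the others. Matn2, the matrix adaptor matrilin-2 (chromosome 15, 34306677 to 34436273, plus strand), stood at 565, 441 and 127 CPM, with medians over wells of 348, 318 and 0 and maxima of 4178, 1862 and 1631. Its pooled fold was 3.84 (3.75 to 3.94). Smoc1, a calcium-binding matricellular protein, stood at 204, 356 and 50.1 CPM, here with Mural2 the highest.

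Dkk3, a secreted member of the Dickkopf family, stood at 841, 752 and 281 CPM, with medians over wells of 669, 534 and 203 and maxima of 3081, 2849 and 1851. Its pooled fold was 2.80 (2.75 to 2.85). It was the 1 gene of 8 tested from the WNT list that passed, beside 2.52% of all genes tested. The antagonist Sfrp1 stood at 150.3, 94.9 and 213 CPM and did not pass. Fmod, the proteoglycan fibromodulin that regulates collagen fibrils, had the largest pooled fold, with 1403 CPM in Mural1, 99.6 in Mural2 and 30.0 in Mural3. A single well gave 60.5% of the Mural1 reads. Without the highest well of each set the levels were 629, 76.5 and 25.2 CPM, and without the wells that held 100 CPM or more of the chondrocyte markers (7 of 34, 0 of 48 and 3 of 253) they were 181, 99.6 and 30.3 CPM. It did not pass without the wells of more than 6000 genes.

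The list of proteoglycans and matricellular proteins held 26 tested genes, with a median log2 fold of 0.15 beside 0.02 over all genes. Of these 4 were higher (Fmod, Ctgf, Matn2 and Cilp) and none lower, beside 1.13% and 1.40% of all genes tested. All 4 also passed without the wells of 100 CPM of chondrocyte markers. Cilp, cartilage intermediate layer protein, stood at 621, 457 and 226 CPM, but 39.7% of its Mural1 reads came from 1 well, and without the highest wells it stood at 347, 341 and 187 CPM and did not pass. Mfap4, a microfibril-associated glycoprotein of elastic fibres, stood at 4018, 4252 and 2001 CPM, a pooled fold of 2.08 (2.06 to 2.09), and its medians over wells were 4224, 2823 and 986. It lay so near 2-fold that it did not pass with TMM scaling. In the elastic fibre list 1 of 18 tested genes was higher, Mfap4, and 1 lower, Efemp1, beside 1.13% and 1.40% of all genes tested.

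**Figure D2:**
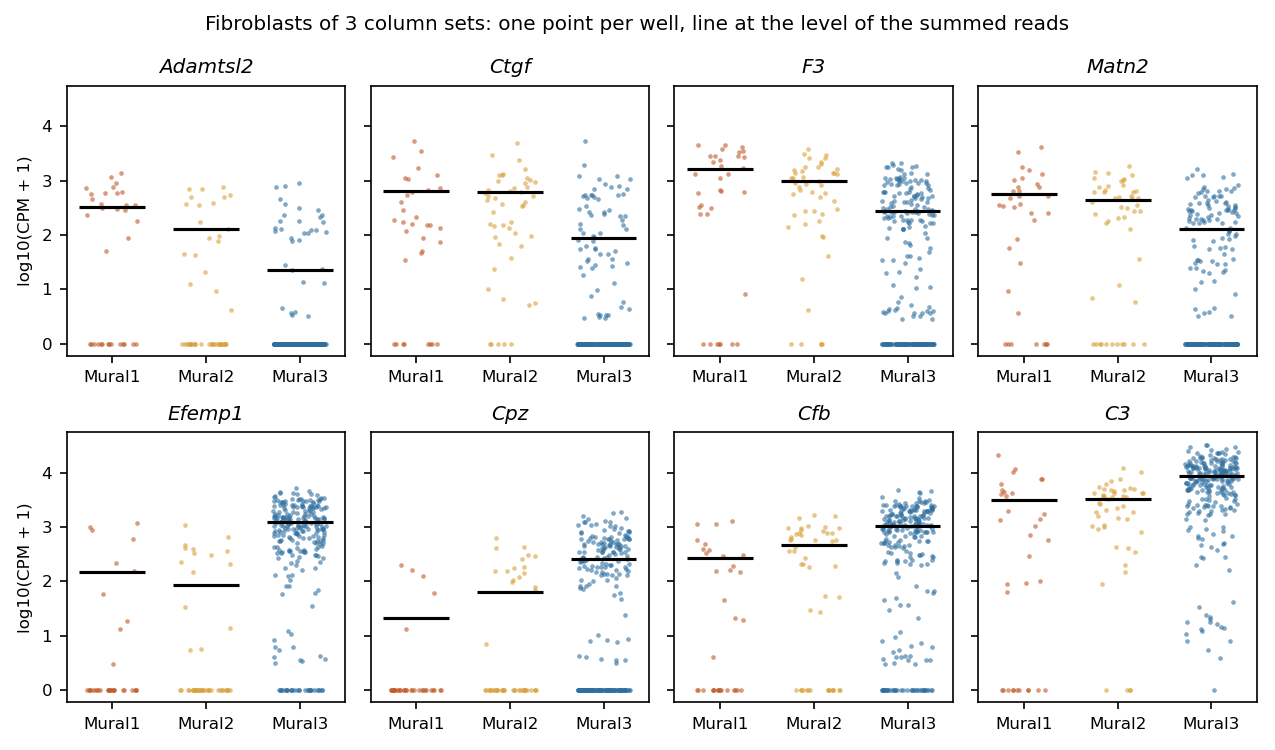
Each point is 1 fibroblast well, with the log10 of its CPM plus 1 on the y axis and the 3 sets on the x axis, and the black line is the level of the set's summed reads. The upper genes are higher and the lower genes lower in both Mural1 and Mural2; wells with no read lie at 0 in every set, and the clouds overlap for all 8 genes.

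F3 encodes tissue factor, the receptor that starts blood clotting (chromosome 3, 121723537 to 121735048, plus strand). It stood at 1603 CPM in Mural1, 983 in Mural2 and 272 in Mural3. Over wells it ran from 0 to 4525 with a median of 897 in Mural1, from 0 to 3880.4 with a median of 717 in Mural2 and from 0 to 2143 with a median of 15.8 in Mural3. The pooled fold was 4.50 (4.43 to 4.58). The median well of both Mural1 and Mural2 lay above the upper quartile of Mural3, which was 377 CPM.

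The bases before its start are shown because F3 passed and its promoter holds paired matches to TGANTCA. This is the AP-1 motif, the site of Fos and Jun proteins. The 250 bases before the start of transcription (chr3:121723287-121723536, plus strand, RefSeq, GRCm38.p6) read as follows, with the matches in capitals at 146 and 135 bases before the start.
F3: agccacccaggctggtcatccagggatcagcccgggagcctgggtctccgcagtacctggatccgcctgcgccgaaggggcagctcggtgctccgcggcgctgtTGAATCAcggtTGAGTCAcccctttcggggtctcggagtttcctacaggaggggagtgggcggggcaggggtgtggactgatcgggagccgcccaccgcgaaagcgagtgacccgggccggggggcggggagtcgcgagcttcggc

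On either strand, a match to TGANTCA was present in at least 1 RefSeq promoter window of 300 bases (250 before and 50 after the start) of 8.97% of 27025 genes, and in 4 of the 30 higher and 3 of the 39 lower genes that had a window. This is a description of letters and says nothing of binding.

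Col4a3 and Col4a4 encode chains of the type IV collagen network of basement membranes, and their genes lie head to head on chromosome 1. Col4a4 (82448423 to 82586849, minus strand) stood at 106 CPM in Mural1, 101 in Mural2 and 25.3 in Mural3, a pooled fold of 4.08 (3.86 to 4.31). Col4a3 (82586921 to 82722059, plus strand) stood at 92.5, 84.9 and 37.1 CPM, a pooled fold of 2.37 (2.25 to 2.49). Reads of both genes were found in 8 of 34, 13 of 48 and 30 of 253 cells. They were the 2 of 13 tested basement membrane genes that were higher, and none was lower, beside 1.13% and 1.40% of all genes tested. Col4a1, a chain found in nearly every basement membrane, stood at 782, 695 and 506 CPM and did not pass, nor did the laminin chain Lama2 at 577, 831 and 789 CPM.

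The 71 bases between the annotated starts of the pair (chr1:82586850-82586920, minus strand, RefSeq, GRCm38.p6) are shown because they are all that separates 2 genes that were both higher. Neither the counting program nor its strand setting was given in the sources used here.
Col4a4: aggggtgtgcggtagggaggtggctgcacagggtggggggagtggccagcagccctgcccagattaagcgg

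Other genes among the largest higher folds encode intracellular and membrane proteins. Trib2, a pseudokinase that steers protein degradation, stood at 128, 75.0 and 12.8 CPM in Mural1, Mural2 and Mural3, with a read in 52.9%, 31.2% and 6.72% of cells. Lhfpl2, a tetraspan membrane protein, stood at 240.4, 90.9 and 26.8 CPM. Slc6a7, a proline transporter, stood at 70.4, 78.3 and 10.7 CPM. Mical2, an enzyme that oxidises actin, stood at 46.7, 72.8 and 10.5 CPM, and Unc13b, a vesicle-priming protein, at 78.1, 66.2 and 10.1 CPM. In Mural3 these 5 genes were read in only 6.72% to 11.5% of cells. Fibin, a secreted protein, stood at 302, 116 and 46.5 CPM.

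Surface and guidance proteins were on both sides. Sema3d, a secreted semaphorin, stood at 348, 317 and 118 CPM, and the slit receptor Robo2 at 12.9, 10.2 and 51.7 CPM. These were the 2 genes that passed of 18 tested from the list of vasoactive and guidance proteins, beside 2.52% of all genes tested. The guidance ligand netrin-1, Ntn1, was higher at 509, 381 and 189.9 CPM, while its receptor gene Unc5c was lower at 19.5, 8.02 and 53.4 CPM. Itgbl1, a secreted integrin-beta-like protein, stood at 763, 840.4 and 375 CPM. It was the 1 gene of 17 tested in the integrin and adhesion list that passed, again beside 2.52%. Serpine2, a thrombin inhibitor, stood at 444, 658 and 211 CPM, but 47.5% of its Mural2 reads came from 1 well, and without the highest wells it stood at 322, 317 and 194 CPM and did not pass. Ntn1 and the following genes were picked after their values were seen: Adcy7, an adenylyl cyclase, at 486, 350.1 and 115 CPM, Cd200, a ligand that restrains myeloid cells, at 243, 310.0 and 70.6 CPM, and Dio2, which activates thyroid hormone, at 244, 140.3 and 47.4 CPM, all higher.

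Efemp1 had the largest fold among the lower genes. It encodes fibulin-3, an elastic fibre protein (chromosome 11, 28853204 to 28926743, plus strand), and stood at 149 CPM in Mural1, 86.4 in Mural2 and 1218 in Mural3. Over wells it ran from 0 to 1214 in Mural1 and from 0 to 1101 in Mural2, with a median of 0 in both, and from 0 to 5290.1 with a median of 929 in Mural3. A read was found in 23.5%, 27.1% and 83.8% of cells. The fold of Mural3 was 8.18 (7.79 to 8.59) over Mural1 and 14.1 (13.4 to 14.8) over Mural2. The lower quartile of Mural3, 304 CPM, lay above the upper quartiles of Mural1 and Mural2, 9.90 and 17.9 CPM.

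Secreted regulators and receptors were among the other lower genes. Bdkrb1, the inducible bradykinin receptor, stood at 37.4, 61.3 and 324 CPM, with a read in 20.6%, 31.2% and 56.1% of cells and a fold of 6.24 (5.92 to 6.58) of Mural3 over the pool. Cpz, carboxypeptidase Z, stood at 20.2, 61.8 and 259.6 CPM, and its median over wells was 0 in Mural1 and Mural2 and 72.7 in Mural3. Igfbp5, which binds insulin-like growth factors, stood at 181, 66.6 and 533 CPM, and Fgf10, a growth factor for lung epithelium, at 25.4, 31.9 and 92.4 CPM. These were the 2 lower genes of 10 tested niche growth factors and none was higher, beside 1.40% and 1.13% of all genes tested. Igfbp7 of that list stood at 6160.4, 5987 and 5333 CPM. Col23a1, a transmembrane collagen, stood at 25.0, 82.2 and 288 CPM. It was the 1 of 13 tested genes of the fibrillar and beaded collagen list to pass, beside 2.52% of all genes tested. Col3a1 at 13358, 12504 and 13144 CPM and Col1a2 at 9068, 9750.4 and 9457 CPM were close in all sets, and neither passed.

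In the list of complement and coagulation, 3 complement genes were lower while tissue factor was higher. C3, the central complement protein (chromosome 17, 57203970 to 57228136, minus strand), stood at 3202, 3232 and 8577 CPM. Over wells it ran from 0 to 21207 with a median of 645 in Mural1, from 0 to 12124 with a median of 2711 in Mural2, and from 0 to 32765 with a median of 7537 in Mural3. The fold of Mural3 was 2.68 (2.65 to 2.71) over Mural1 and 2.65 (2.63 to 2.68) over Mural2. C4b, which joins C2 in the classical convertase, stood at 586, 729 and 1808 CPM, and Cfb, the protease of the alternative pathway, at 268, 464 and 1044 CPM. Of 16 tested genes of complement and coagulation, 3 were lower and 1 was higher, beside 1.40% and 1.13% of all genes tested. The median log2 fold of the 16 was -0.09.

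Adh1 and Vldlr of the lipid and retinoid list and Aox3 of the oxidative stress and detoxification list were lower. Adh1, which oxidises retinol and other alcohols, stood at 585, 852 and 1914 CPM, with medians over wells of 345, 605 and 1562. Adh7, of the same family but in neither list, stood at 83.7, 52.1 and 327 CPM, with 54.2% of its Mural1 reads in 1 well. Vldlr, a lipoprotein receptor, stood at 42.6, 99.9 and 246 CPM, and Aox3, an aldehyde oxidase, at 35.1, 21.2 and 95.4 CPM. In the lipid and retinoid list 2 of 27 tested genes were lower and none higher, with a median log2 fold of -0.16. In the list of oxidative stress and detoxification 1 of 24 was lower and none higher, with a median of -0.18. Over all genes tested 1.40% were lower and 1.13% higher. Inmt, a methyltransferase abundant in lung, stood at 2584, 3719 and 4333 CPM and did not pass.

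The remaining lower genes of large fold were Ifi205, an interferon-inducible protein, at 20.3, 42.7 and 155 CPM, Faim2, an inhibitor of Fas-driven death, at 53.3, 31.7 and 181 CPM, and Arhgap28 at 6.21, 22.3 and 67.8 CPM. Picked after their values were seen, Tgm2, a protein cross-linking transglutaminase, stood at 169, 133 and 585 CPM, Errfi1, a feedback inhibitor of EGF receptors, at 167, 265 and 679.6 CPM, and Penk, the enkephalin precursor, at 297, 248 and 620.3 CPM, all lower. No gene of the antigen presentation and interferon list passed (0 of 15 tested, median log2 fold -0.33), and B2m stood at 1644, 2450.2 and 2677 CPM.

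Immediate early and heat shock genes lay below Mural3 in most cases, more so in Mural1. Of 29 tested, 4 passed as lower (Nr4a2, Fosb, Egr3 and Gadd45b) and none as higher, beside 1.40% and 1.13% of all genes tested. The pooled log2 fold was below 0 for 26 of the 29, against 47.7% of all genes tested, with a median of -0.75 beside 0.02. The median was -1.40 in Mural1 and -0.57 in Mural2, measured against the same Mural3 cells. In Mural1 18 of the 29 were at least 2-fold lower, against 7.36% of all genes tested, and in Mural2 5, against 3.57%.

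Fosb, a partner of Jun proteins in AP-1, stood at 69.0 CPM in Mural1, 90.4 in Mural2 and 295 in Mural3, with medians over wells of 0, 18.1 and 125 and maxima of 625, 1161 and 3383. Nr4a2, an orphan nuclear receptor induced by cyclic AMP and calcium, stood at 12.5, 27.1 and 119 CPM. The zinc finger factor Egr3 stood at 11.6, 29.1 and 69.3 CPM, and Gadd45b, a stress-induced growth arrest protein, at 7.92, 31.9 and 68.0 CPM. Fos stood at 1393, 2148 and 3137 CPM and Egr1 at 699, 2455 and 3713 CPM, and neither passed, as Mural2 lay within 2-fold of Mural3. Nr4a1 stood at 52.1, 889 and 1526 CPM, the widest gap between Mural1 and Mural2 in the list. Cyr61 was on either side of Mural3, with 586, 4169 and 3082 CPM, and the chaperone Hsph1 stood above it, with 99.4, 45.4 and 33.0 CPM. The summed level of the 32 measured genes was 6196 CPM in Mural1 (168 to 21724 over wells), 16409.7 in Mural2 (2507 to 36969) and 21004 in Mural3 (1473 to 73196).

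**Figure D3:**
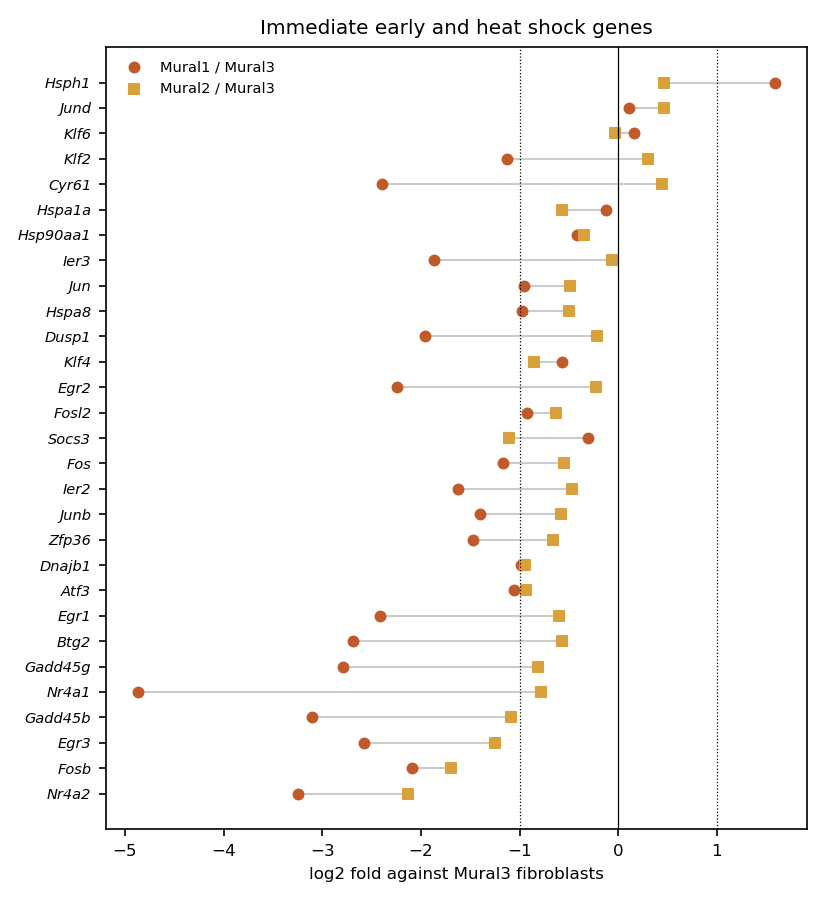
Each row is 1 of 29 tested immediate early and heat shock genes, with the log2 fold against Mural3 fibroblasts on the x axis for Mural1 (circles) and Mural2 (squares); dotted lines mark 2-fold. For 26 of 29 genes the Mural1 circle lies below 0, for 25 the Mural2 square does, and for 4 genes both lie past the lower dotted line.

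The bases before the start of Fosb are shown as an example of a window in this list that holds TGACG, a core of the site of CREB, a factor activated by cyclic AMP. They are chr7:19310046-19310295 on the minus strand (RefSeq, GRCm38.p6), and the match, in capitals, starts 60 bases before the start of transcription.
Fosb: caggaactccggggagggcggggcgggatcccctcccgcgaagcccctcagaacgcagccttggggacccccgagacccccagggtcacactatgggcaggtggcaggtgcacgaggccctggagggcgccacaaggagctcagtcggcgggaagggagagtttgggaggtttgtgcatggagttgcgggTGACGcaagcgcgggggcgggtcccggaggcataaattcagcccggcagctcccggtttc

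On either strand TGACG was present in 13 of the 24 tested genes of the list that had a window of 300 bases, among them Nr4a2 with 4 matches, and in 23.0% of all 27025 genes with a window; the full site TGACGTCA, which contains it, was present in 2 of the 24 and in 2.03% of all. Among the 94 genes that passed, 21 of the 69 with a window held TGACG. The 27025 genes include those not tested here, so they are not a like background. TGACG was 1 of several motifs scanned, and TGANTCA was present in 0 of the 24. As for F3, this is a description of letters and says nothing of binding.

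Several functional groups held no gene that passed, beside 2.52% of all genes tested, so a count of 0 is not particular to lists of this size. None of 23 tested genes of TGF-beta and BMP signalling did (median log2 fold 0.03), none of 26 mesenchymal transcription factors (-0.11), none of 12 chemokines and cytokines (-0.18) and none of 9 of glycolysis and hypoxia (-0.13). Fstl1, a secreted BMP-binding glycoprotein, stood at 2033, 1678 and 1811 CPM, the factor Nfib at 394, 448 and 507 CPM, and the chemokine Cxcl12 at 1779, 1231 and 1453 CPM. Meox2, a homeobox factor, stood at 233, 344 and 152 CPM, 2-fold from Mural3 in Mural2 but not in Mural1. None of the 10 tested adventitial markers passed, and 7 had a pooled log2 fold below 0. Among them Cd34 stood at 1931, 1758 and 1775 CPM and Ly6a at 1543, 1963 and 2226 CPM. In cells with less than 20 CPM of Col4a3 and Col4a4 together and of Aqp1, Cd34 stood at 1286, 1409 and 1605 CPM. Ly6a stood at 646, 1644 and 2387 CPM there.

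The reporter gene and its driver were higher in Mural1 and Mural2 without passing in both. Reads of eGFP stood at 554, 425 and 249 CPM, and Pdgfrb, the platelet-derived growth factor receptor whose control region drives it, at 846, 664 and 375 CPM, with reads in 97.2% to 100.0% of cells. Cspg4, which encodes NG2, stood at 141, 54.4 and 38.2 CPM, with 30.6% of the Mural1 reads in 1 well. The part of these levels in the other differences was not tested.

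The sets held different shares of fibroblasts with Col4a3 or Col4a4. At a summed level of 20 CPM or more they were 16 of 34 in Mural1 (47.1%, 29.8 to 64.9), 27 of 48 in Mural2 (56.2%, 41.2 to 70.5) and 41 of 253 in Mural3 (16.2%, 11.9 to 21.3). The intervals cover the counting of cells within 1 sample a set and do not compare the sets. This is a range of a measured level and not a cell type; 0, 5 and 13 cells lay within 2-fold of the threshold. Cells with 20 CPM or more of Aqp1, a water channel, made up 17.6% (6.76 to 34.5), 18.8% (8.95 to 32.6) and 18.6% (14.0 to 23.9). Cells below 20 CPM for both measures made up 38.2%, 27.1% and 66.4%.

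**Figure D4:**
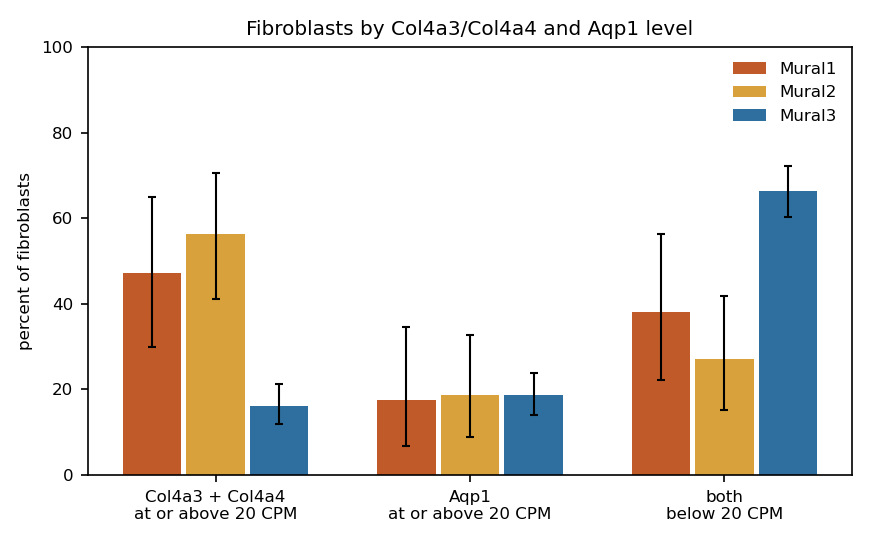
Bars give the percent of fibroblasts in each set with 20 CPM or more of Col4a3 and Col4a4 together, with 20 CPM or more of Aqp1, or with less of both, and whiskers the exact 95% Clopper-Pearson interval. The Mural3 bar for Col4a3 and Col4a4, at 16.2%, lies below the bars of Mural1 and Mural2, at 47.1% and 56.2%, and the 3 Aqp1 bars lie between 17.6% and 18.8%.

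The genes that passed were also read among cells low for Col4a3, Col4a4 and Aqp1, of which there were 13 in Mural1, 13 in Mural2 and 168 in Mural3. These cells are part of those by which the genes were chosen, so a shared direction is in part by construction. Of the 92 genes that passed besides Col4a3 and Col4a4, the pooled fold had the same direction for 91 in these cells (Pcdh7 was the exception, picked for that, with a log2 fold of -0.39), reached 2-fold for 66, and 41 passed again. In these cells 174 of 3665 genes (4.75%) passed, 83 (2.26%) higher and 91 (2.48%) lower, beside 2.52% over all fibroblasts. Efemp1 stood at 359 CPM in Mural1, 188 in Mural2 and 1093 in Mural3 in these cells, at 16.8, 33.7 and 947 among cells with Col4a3 or Col4a4, and at 96.0, 84.2 and 1985 among the Aqp1 cells without them. F3 stood at 888, 788 and 246 CPM in the low cells and at 2464, 1208 and 411 in the Col4a3 or Col4a4 cells, but at 141, 496 and 248 in the 5, 8 and 44 Aqp1 cells, where Mural1 lay below Mural3. C3 stood at 5202, 4912 and 10143 CPM in the low cells, 2375, 2598 and 6037 in the Col4a3 or Col4a4 cells and 988, 2261 and 4565 in the Aqp1 cells, lower than Mural3 in each. In the low cells neither C3 nor C4b passed again. Cfb passed there, at 249.9, 466 and 1205 CPM, but in the Col4a3 or Col4a4 cells it stood at 330.4, 491 and 517 CPM. Of the immediate early genes that passed, Nr4a2 and Fosb passed again in the low cells, and Egr3 and Gadd45b did not. There Egr3 stood at 19.0, 59.6 and 78.8 CPM and Gadd45b at 9.10, 80.7 and 76.8 CPM.

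**Figure D5:**
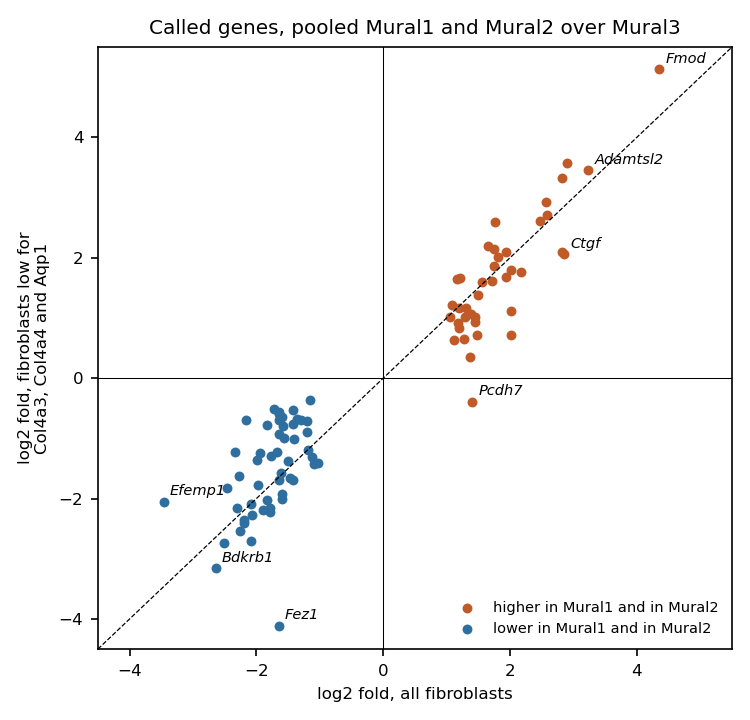
Each point is 1 of the 92 genes that passed besides Col4a3 and Col4a4, with its pooled log2 fold over all fibroblasts on the x axis and over fibroblasts low for Col4a3, Col4a4 and Aqp1 on the y axis; the dashed line marks equal values. The axes share cells, so the points lie near the line in part by construction, and 91 of the 92 have the same sign on both.

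Among the largest folds between Mural1 and Mural2 were genes of cartilage, class II antigen presentation and surfactant. Higher in Mural1 were Cytl1, a cytokine-like protein of cartilage, at 1503 CPM against 0.930 in Mural2, Prg4, the joint lubricant lubricin, at 710.1 against 23.9, Clu, the chaperone clusterin, at 2947 against 91.0, and Col8a1, a short-chain collagen, at 357 against 13.1. The cartilage genes Chad and Comp stood at 1003 and 384 CPM in Mural1 against 2.96 and 0 in Mural2, with Chad read in 20.6% of Mural1 cells. Without the 7 Mural1 wells that held 100 CPM or more of the chondrocyte markers, Clu stood at 69.9 CPM and Prg4 at 23.6 CPM in Mural1, level with Mural2, while Cytl1 stood at 219 and Col8a1 at 166 CPM. Higher in Mural2 were H2-Ab1 (0.180 against 218 CPM) and Cd74 (8.91 against 539), of class II antigen presentation, Lyz2, lysozyme (12.9 against 419), and Sftpa1, a surfactant protein (5.40 against 137), with 83.4%, 72.1%, 77.9% and 21.7% of the Mural2 reads in a single well. Gabra3, a GABA receptor subunit, had no read in the 34 Mural1 cells and stood at 95.9 CPM in Mural2 and 106 in Mural3, with reads in 41.7% and 32.0% of cells. Npr3, the clearance receptor of natriuretic peptides, stood at 2.16 CPM in Mural1, 68.0 in Mural2 and 23.3 in Mural3.

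Of the 42 genes named by rule that passed, 16 passed under each of 12 further settings of scaling, cell choice and well removal. The 7 higher ones were Adamtsl2, Trib2, Ctgf, Lhfpl2, F3, Matn2 and Dkk3, and the 9 lower ones Efemp1, Bdkrb1, Cpz, Nr4a2, Col23a1, Ifi205, Arhgap28, Fosb and Cfb. The settings reused largely the same wells, and none was limited to the cells with Col4a3 or Col4a4. In those cells some of the 16 were not 2-fold from Mural3 in both sets. Adamtsl2 stood there at 555, 93.0 and 60.7 CPM and Fosb at 29.7, 125 and 215 CPM. Others were, such as Ctgf at 739, 859 and 238 CPM. Under the stricter rule, with at least 1000 CPM of Dcn, no pericyte gene at 20 CPM and less than 1000 CPM of Sftpc and Scgb1a1, the named genes that no longer passed were Smoc1, Fibin, Col4a3, Cilp, Serpine2, Adh1, Adh7, Robo2, Faim2, Unc5c and Egr3. Mfap4, Cilp and Itgbl1 no longer passed with TMM scaling. Without the Sox9 criterion these did not pass either, nor did Igfbp5, Unc13b, Robo2 and Col4a3. Of all 94 genes 70 passed again without that criterion, 24 of the 42 higher and 46 of the 52 lower. The factors of both scalings lay between 0.984 and 1.013, so scaling could not turn the direction of a gene past 2-fold.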

How the data were processed

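For each gene and cell the authors deposited a raw read count (21947 genes and the eGFP transgene, 1504 columns) and, in a second table, a score. Per the submitters' processing notes the aligner was STAR 2.4.2a and the genome mm10; how reads were counted, with which annotation, and how cells were filtered is not given in the sources used here. All 33009792 deposited scores lay within 1 of the count multiplied by 500000 and divided by the cell's total, so the counts were used, and the scores only as an alternative. Levels are summed reads of a set over its summed reads, in CPM, not corrected for gene length, so levels of different genes are not compared. Below 3 reads, a side counted as 3 for folds (0.270, 0.174 and 0.0325 CPM in Mural1, Mural2 and Mural3). Each set is 1 sample, so a rule of size replaced a test. The rule was checked on simulated data drawn for every set from the levels and spread of the Mural3 fibroblasts, with folds put into chosen genes. Such data hold no other difference between sets, so they cannot show how often the rule is met by sets that differ by themselves. Genes used by the fibroblast rule were not counted. Thinning used seed 1.

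Coordinates come from the GRCm38 annotation, in which 21569 gene symbols were found, 784 through a synonym. Promoter windows come from RefSeq. Named were the 12 largest pooled folds in each direction among genes that passed, up to 4 members of each of 21 functional lists, the genes of the fibroblast rule, reporter and sex-linked genes, and the 6 largest folds each way between Mural1 and Mural2; predicted or unnamed genes were counted and not named. Members and lists were chosen with earlier results of these data known. No doublet caller was run; settings without wells carrying endothelial, leukocyte or epithelial markers and without wells of more than 6000 genes (0, 3 and 3 fibroblasts) stand in for one. Alternatives covered scaling (TMM factors of edgeR 4.0.16 in R 4.3.3, median ratios), thresholds, cell choice and left-out sets. Python 3.11.15, numpy 2.4.6, pandas 2.3.3 and scipy 1.17.1 were used.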

Additional observations from a re-analysis of the deposited data

Results flagged for a closer look

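For 4 genes (0.107% of the 3724 tested) Mural1 and Mural2 fibroblasts lay at least 2-fold from Mural3 in opposite directions. With 1 sample a set the difference was not tested. Aspn, the proteoglycan asporin, stood at 656 CPM in Mural1, 77.9 in Mural2 and 181 in Mural3, log2 folds of 1.86 and -1.21 against Mural3. Apod, the lipid carrier apolipoprotein D, stood at 2157, 220.2 and 894 CPM (log2 folds 1.27 and -2.02) and was read in 67.6%, 66.7% and 76.7% of cells. Foxo1, a transcription factor held in check by insulin signalling, stood at 175, 40.6 and 84.5 CPM (1.05 and -1.06), and Dirc2, a lysosomal membrane transporter, at 129, 26.6 and 55.2 CPM (1.22 and -1.05). Without the wells that held 100 CPM or more of the chondrocyte markers the Mural1 log2 folds were 0.83 for Aspn, 1.55 for Apod, 0.96 for Foxo1 and 1.52 for Dirc2, so that Aspn and Foxo1 fell short of 2-fold.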

How the results depend on the processing

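The count of 94 genes (42 higher, 52 lower) depends most on thresholds. It was 12 (7 and 5) at 4-fold, 190 (107 and 83) by the pooled fold alone and 6419 (4851 and 1568) with no minimum level, where the 3 reads given to a side near 0 weigh differently in sets of unequal size. With 1 of Mural1 and Mural2 left out it ranged from 256 to 619, higher genes from 123 to 345 and lower genes from 133 to 274. In fibroblasts low for Col4a3, Col4a4 and Aqp1 it was 174 (83 and 91), and Col4a4 reversed there to -1.01, by construction of that choice of cells. Settings added after the data were seen were the removal of top wells, of wells over 6000 genes and of wells with chondrocyte markers, and the rule without Sox9. Removing each gene's top well in each set gave 112 genes (24 higher and 88 lower), and within the low cells 329 (25 and 304); it takes a larger part of the reads from the smaller sets, and the median log2 fold moved to -0.10. TMM factors gave 90 genes, 89 of them shared, and median ratios 96, with 92 shared. Other settings gave similar counts of partly different genes. The stricter rule gave 108 with 71 shared, and the rule without Sox9 gave 98 with 70 shared. Without wells with endothelial, leukocyte or epithelial markers it was 100 with 77 shared. Of the 112 genes without top wells 73 were shared, 24 of the 42 higher and 49 of the 52 lower. The 711 genes between Mural1 and Mural2 (397 higher, 314 lower) became 1156 at 10 CPM (624 lower), 7019 with no minimum (2654 and 4365) and 92 at 4-fold (46 and 46). The median of the immediate early genes was -0.71 without the wells with chondrocyte markers. No paired analysis was possible because the columns carry no replicate numbers and each set is 1 sample. With 34 and 48 cells, 1 well can hold most of a gene's reads, and genes under 50 CPM were not read.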

Other observations

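Genes that passed outside the lists were, among the higher ones, Vwa1, a matrix protein of basement membranes, at 241, 148 and 62.5 CPM in Mural1, Mural2 and Mural3, Egflam, pikachurin, at 206, 202 and 95.8 CPM, Htra4, a secreted serine protease, at 221, 171 and 78.1 CPM, Cd97, an adhesion receptor, at 89.5, 104 and 29.4 CPM, Rab31, a vesicle GTPase, at 165, 113 and 40.8 CPM, and Insig2, which holds back sterol synthesis, at 135, 98.6 and 48.8 CPM. Among the lower ones were Lifr, the receptor of leukemia inhibitory factor, at 34.5, 34.5 and 113 CPM, Hes1, a target of Notch signalling, at 43.7, 51.2 and 105 CPM, Tnfaip6, a hyaluronan-binding protein, at 45.0, 35.0 and 133 CPM, Angpt4, an angiopoietin, at 23.4, 45.6 and 127 CPM, Cdon, a Hedgehog co-receptor, at 43.1, 37.8 and 113 CPM, and Cyp7b1, which hydroxylates oxysterols, at 21.7, 28.3 and 69.3 CPM. All were picked after their values were seen.

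Mmp3, the protease stromelysin-1, did not pass, as Mural1 and Mural2 differed. It stood at 327 CPM in Mural1, 4315 in Mural2 and 2578 in Mural3, with a read in 26.5%, 87.5% and 61.3% of cells. Gpx3, the secreted glutathione peroxidase, stood at 2603, 1174 and 3056 CPM, and Ccl11, the eosinophil chemokine eotaxin, at 778, 1563 and 734 CPM.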
